A study of Mus musculus with 8 samples.

Results

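Antigen presentation by MHC molecules was followed across 35 genes of the class I and class II pathways in endothelial cells sorted from mouse lung. The members were the rows of the count matrix whose gene identifier matched one of 35 mouse symbols, for class I and class II chains, nonclassical class I molecules, the immunoproteasome, the peptide transporter and the regulators of the genes. All 35 were found among 31610 genes, and all 35 were among the 18874 genes that passed the low-count filter and were tested. The mice were C57BL/6J and had been given adeno-associated virus (AAV), which carries a chosen gene into tissue. There were 4 libraries from mice given an nANGPTL4 AAV and 4 from mice given a control AAV, described as independent biological replicates, and nothing but the virus separates the groups in the labels. nANGPTL4 is the N-terminal fragment of ANGPTL4, a secreted inhibitor of lipoprotein lipase. The labels do not give the age or sex of the mice, the dose, the time after injection, the promoter in the vector, what the control virus carried or the markers of the sort. The titles of the nANGPTL4 AAV libraries read NT Treated, which the labels do not explain, so that group rests on the treatment field.

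Class I molecules are built from a heavy chain and beta-2-microglobulin and carry peptides that the proteasome has cut in the cytosol, that the TAP transporter has moved into the endoplasmic reticulum and that ERAP1 has trimmed there. Class II molecules are pairs of alpha and beta chains that travel with the invariant chain CD74 to endosomes, where H2-DM exchanges the remnant of CD74 for a peptide from the endocytic route. Nearly all nucleated cells carry class I, whereas class II is typical of dendritic cells, B cells and macrophages and is also known in endothelium and in alveolar type 2 cells. NLRC5 drives transcription of class I genes and CIITA that of class II genes, and interferon gamma raises both programmes.

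Total counts were 83183122 to 114337333 per library. Pecam1 and Cdh5, which encode endothelial adhesion molecules, were at 2539 to 2692 CPM (counts scaled to the size of the library) and 1113 to 1174 CPM in nANGPTL4 AAV libraries, and at 2593 to 2835 CPM and 1154 to 1244 CPM in control AAV libraries. The 10 endothelial markers, with Kdr and Cldn5 as the highest, came to 15759 to 16695 CPM in nANGPTL4 AAV and 16732 to 17622 CPM in control AAV, which did not overlap. Of these markers 9 had negative log2 fold changes, as had 62.5% of the 9241 genes with a mean log2 CPM over 3, and their median of -0.05 was -0.01 when scaled by library size alone. The lowest was -0.27. The groups did not overlap in 3 of the 10 markers, all lower in nANGPTL4 AAV, against 6.99% of all genes tested. An unadjusted edgeR p under 0.05 with a lower level was found for 3 of the 10, against 10.3% of all genes tested. Angptl4, whose product the virus delivers in part, was counted 360, 667, 465 and 558 times in nANGPTL4 AAV libraries 1 to 4, against 304, 332, 321 and 285 times in control AAV libraries 1 to 4. It did not pass the test over all genes (adjusted p = 0.110 in edgeR). The groups of libraries are separate samples of sorted cells, and in such bulk samples fewer cells of a type and less RNA per cell cannot be told apart. H2-Ea-ps, the class II alpha gene that is inactive in the H-2b haplotype of C57BL/6 mice, was chosen after its values were seen and had 0 to 3 counts in each of the 8 libraries.

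Upstream sequences are shown for 3 class II genes that varied together between libraries, as described further on, and for H2-D1, the most abundant class I gene. They were read from RefSeq for build GRCm38.p6, which has the coordinates of mm10, and each is the 250 bases before the start that RefSeq annotates, 5′ to 3′ on the strand of the gene. The window of H2-Aa is chr17:34287824-34288073 on the minus strand. Those of H2-Eb1, H2-DMb1 and H2-D1 are chr17:34305617-34305866, chr17:34152941-34153190 and chr17:35262844-35263093 on the plus strand. The RefSeq start is that of the GENCODE gene for H2-Aa and H2-Eb1, and lies 119 bases downstream of it for H2-DMb1 and 364 bases downstream for H2-D1, so these windows reach into the GENCODE gene. In the class II genes, capitals mark every match on either strand to GNAACT, a core of the X box where the RFX complex binds, and to ATTGG, the core of the Y box where NF-Y binds.
H2-Aa: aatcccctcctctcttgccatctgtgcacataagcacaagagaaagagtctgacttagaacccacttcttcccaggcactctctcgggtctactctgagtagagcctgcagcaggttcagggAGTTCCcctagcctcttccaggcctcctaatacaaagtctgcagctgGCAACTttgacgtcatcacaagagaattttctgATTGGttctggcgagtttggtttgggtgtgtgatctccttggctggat
H2-Eb1: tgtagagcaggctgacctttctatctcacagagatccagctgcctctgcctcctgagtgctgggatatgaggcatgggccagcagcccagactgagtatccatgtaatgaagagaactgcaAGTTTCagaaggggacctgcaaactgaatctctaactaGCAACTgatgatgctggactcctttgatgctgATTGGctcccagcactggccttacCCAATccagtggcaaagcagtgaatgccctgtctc
H2-DMb1: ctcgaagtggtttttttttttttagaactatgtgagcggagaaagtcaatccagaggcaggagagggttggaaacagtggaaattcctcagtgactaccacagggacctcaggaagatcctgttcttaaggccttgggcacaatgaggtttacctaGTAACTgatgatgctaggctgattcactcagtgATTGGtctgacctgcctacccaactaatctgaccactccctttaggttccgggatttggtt
In H2-D1, capitals mark every match on either strand to GGATTCC, a core of kappa B sites, to TTTCNNTT, a core of interferon response elements, and to ATTGG.
H2-D1: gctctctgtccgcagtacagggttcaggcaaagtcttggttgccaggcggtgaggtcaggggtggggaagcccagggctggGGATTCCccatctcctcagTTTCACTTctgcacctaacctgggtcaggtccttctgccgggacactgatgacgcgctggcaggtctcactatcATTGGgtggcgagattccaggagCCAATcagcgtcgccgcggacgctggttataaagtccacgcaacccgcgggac
In each of the 3 class II windows a GNAACT match was followed on the same strand by GATTGG after 25 or 26 bases. The letters were chosen after these sequences were seen. Of all 32851 windows in the RefSeq table, 0.271% held GNAACT followed by GATTGG at a distance of 15 to 35 bases, searched on both strands, and of the 26 members with a window H2-Aa, H2-Eb1 and H2-DMb1 did. H2-DMa, which varied together with these 3 genes and is not shown, had a window with ATTGG but without GNAACT. Single motifs were common, with ATTGG in 33.8% of all windows, GNAACT in 37.3% and TTTCNNTT in 21.3%. GGATTCC was in 3.17% of all windows, and among the members in those of H2-D1, H2-K1, H2-Q6 and H2-Q7. The members without a window were Tap2, Tapbpl, Nlrc5, H2-T24, Cd1d1, H2-Ab1, Cd74, Ciita and Rfxap.

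The class I machinery was abundant in lung endothelium in both groups. On the scale of CPM per kilobase of the principal transcript, which allows levels of different genes to be compared, the mean level over the 8 libraries was 2582 for H2-D1, 2137 for B2m and 1556 for H2-K1. H2-T23, the mouse Qa-1 gene whose product is read by receptors of natural killer cells, followed at 417 and Tapbp, which encodes the tapasin bridge between class I and TAP, at 383. The class II chains were lower, at 253 for H2-Ab1 and 107 for H2-Aa, with 172 for Cd74 on the same scale. The activators Nlrc5 and Ciita were at 7.58 and 6.19 CPM per kilobase. Ctss, which encodes the endosomal protease cathepsin S that cleaves CD74 in professional antigen-presenting cells, was the lowest member at 0.248 CPM per kilobase. It had 0.270, 0.622, 0.456 and 0.156 CPM in nANGPTL4 AAV libraries 1 to 4, and 0.351, 0.230, 0.351 and 0.251 CPM in control AAV libraries 1 to 4. No library reached 1 CPM for Ctss, while 18 members had at least 100 CPM in every library. Other endosomal proteases of the class II list were abundant, with Ctsl at 209 to 231 CPM in nANGPTL4 AAV libraries and 210 to 242 CPM in control AAV libraries.

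**Figure D1:**
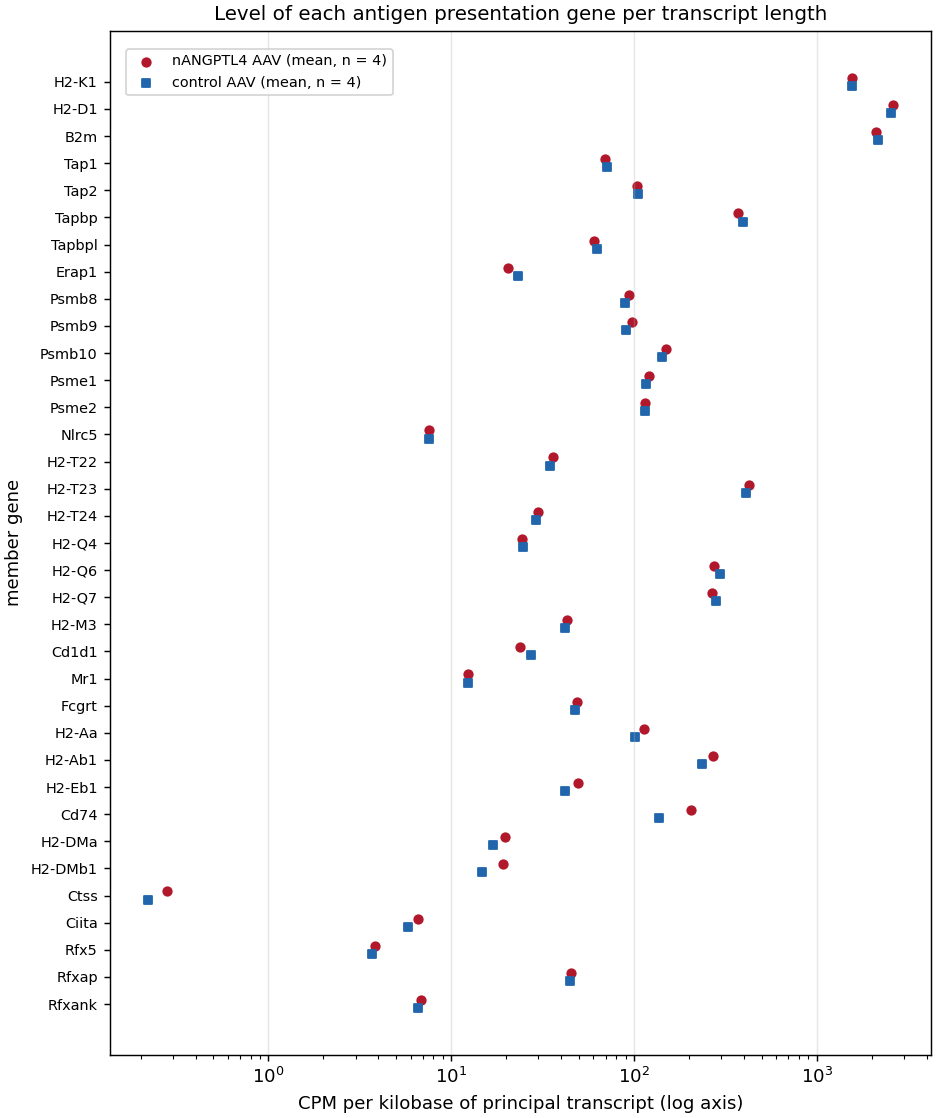
Mean level of each of the 35 members in nANGPTL4 AAV (red circles) and control AAV (blue squares), in CPM per kilobase of the principal transcript on a log axis, each a mean over 4 libraries. H2-D1, B2m and H2-K1 lie highest and Ctss lowest, and the group means of most members lie close together.

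The AAV treatment was accompanied by no called change in the antigen presentation genes. Of the 35 members, 0 passed edgeR's quasi-likelihood test at a Benjamini-Hochberg adjusted p under 0.05. Of all 18874 genes tested 26 passed, a background of 0.138%, with 0.0477% higher and 0.0901% lower in nANGPTL4 AAV. At an unadjusted p under 0.05 there were 2 members, Erap1 and Cd1d1, both lower, which is 5.71% of the members. Of all genes tested 17.6% were under that p, 7.35% higher and 10.3% lower. The same 2 were the members whose groups did not overlap, again 5.71%, against 10.9% of all genes tested, 3.89% higher and 6.99% lower. The members' shares were therefore below the background. DESeq2 called the same 2 members, 5.71% of them, against 6.14% of all genes it gave an adjusted p (4.16% lower). With limma-voom 0 members were called, against 0.111% of all genes. Log2 fold changes (nANGPTL4 AAV minus control AAV) ranged from -0.20 to 0.59 over the members, with a median of 0.04 and 22 of 35 above 0. Over all genes tested the median was 0.01 and 52.2% were above 0. Over the 9241 genes with a mean log2 CPM over 3, the level of 34 of the members, the median was -0.03 and 37.5% were above 0. The sign of small values depended on the scaling, with 29 of 35 members above 0 and a median of 0.09 when scaled by library size alone, where the median of those 9241 genes was 0.01. Upper-quartile scaling likewise put 29 members above 0. The median absolute log2 fold change was 0.05 among the members and 0.07 among the 9241 genes.

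**Figure D2:**
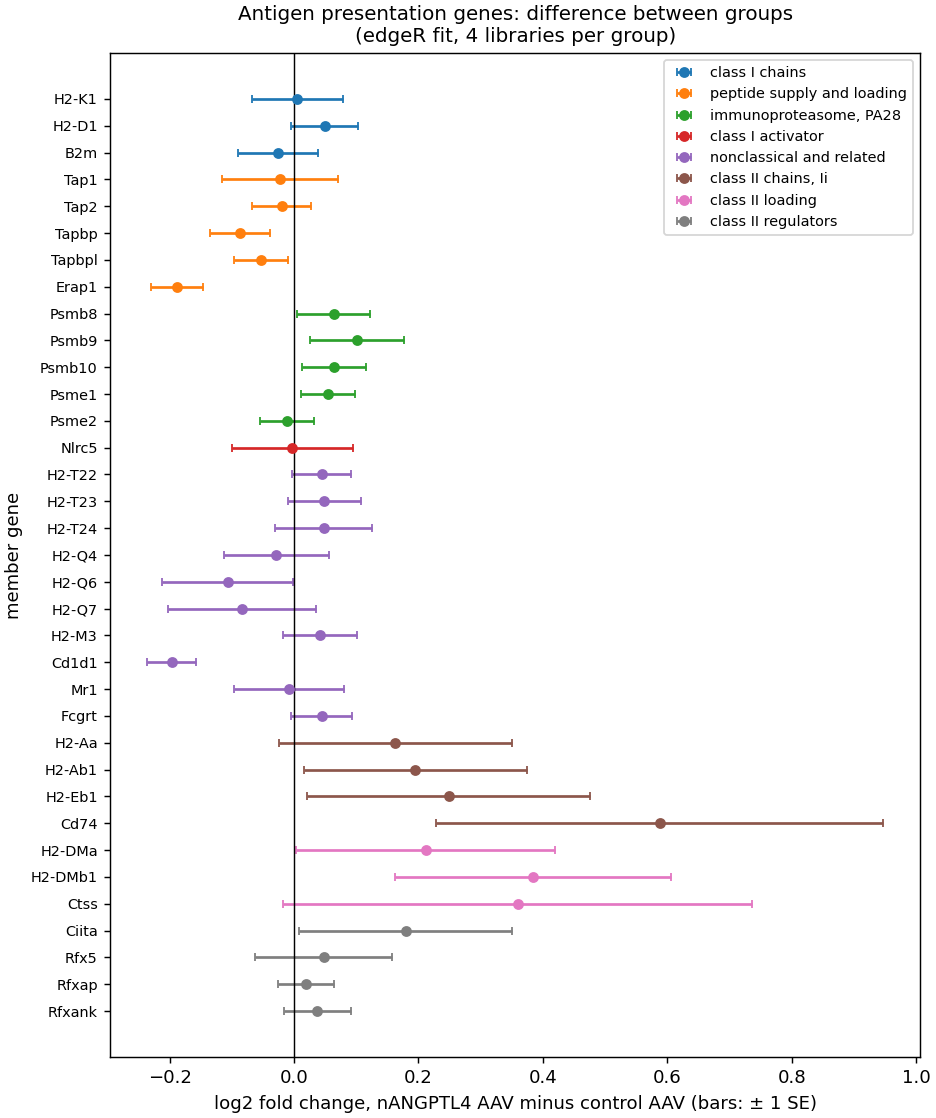
Log2 fold change of each of the 35 members, nANGPTL4 AAV minus control AAV, from the edgeR fit of 4 libraries per group, with bars of 1 SE to each side and colours for the role of the gene. Class I genes lie near 0 with narrow bars, Erap1 and Cd1d1 lie lowest, and class II chains and loading genes lie above 0 with wide bars.

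The classical class I molecules differed little between the groups. H2-D1 had 5744, 5712, 5491 and 5134 CPM in nANGPTL4 AAV libraries 1 to 4, against 5243, 5090, 5369 and 5636 CPM in control AAV libraries 1 to 4. H2-K1 had 2635, 2665, 2512 and 2283 CPM in nANGPTL4 AAV libraries 1 to 4, against 2455, 2300, 2455 and 2849 CPM in control AAV libraries 1 to 4. In both genes the groups overlapped, nANGPTL4 AAV library 4 was the lowest of its group and control AAV library 4 the highest of its group. The log2 fold change was 0.05 (SE 0.05, adjusted p = 0.677) for H2-D1 and 0.01 (SE 0.07, adjusted p = 0.980) for H2-K1 in the edgeR test. B2m, the shared light chain, averaged 1821 ± 70.8 CPM in nANGPTL4 AAV and 1855 ± 161 CPM in control AAV (SD, n = 4 each), and its log2 fold change was -0.03 (SE 0.06, adjusted p = 0.868 in edgeR). H2-K1 lies at chr17:33996017-34000347 on the minus strand and H2-D1 at chr17:35262730-35267499 on the plus strand of mm10. These genes are near copies, and 26.9% of the 31-base stretches of H2-D1 and 22.8% of those of H2-K1 recur in other genes. Their separate counts are therefore less certain, since how reads that match several genes were counted is not given in the sources used here. Counts are sums over whole genes and say nothing of exons or isoforms.

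Of the genes of peptide supply to class I, Erap1 had the smallest p. It encodes the aminopeptidase that trims peptides to the length class I can hold. Erap1 had 117, 113, 119 and 110 CPM in nANGPTL4 AAV libraries 1 to 4, against 132, 131, 126 and 134 CPM in control AAV libraries 1 to 4. Every nANGPTL4 AAV library lay below every control AAV library. The means were 115 ± 4.01 CPM in nANGPTL4 AAV and 131 ± 3.37 CPM in control AAV (SD, n = 4 each), a difference of -12.2%. The log2 fold change of -0.19 (SE 0.04) missed the threshold in the edgeR test (adjusted p = 0.0756), and DESeq2 gave an adjusted p of 0.00464, the lowest of 0.00464 to 0.238 over the alternatives. The log2 fold change was negative in each of 17 alternative fits, between -0.19 and -0.14. Of the exonic bases of Erap1 on chromosome 13 (74639568 to 74693201, plus strand), 11.5% overlap Cast on the other strand. Cast was at 103 ± 6.22 CPM in nANGPTL4 AAV and 106 ± 2.92 CPM in control AAV (SD, n = 4 each). Its log2 fold change was -0.04, and its part in the Erap1 value was not tested.

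The other genes of peptide supply and loading overlapped between the groups. Tap1 and Tap2, the subunits of the transporter, had log2 fold changes of -0.02 each (SE 0.09 and 0.05), Tapbp one of -0.09 (SE 0.05) and Tapbpl, a second peptide editor, one of -0.05 (SE 0.04). Their edgeR adjusted p-values lay between 0.376 and 0.927. When counts were scaled by library size alone, Tap1 and Tap2 both turned to 0.02. Tap1 had 216, 213, 212 and 183 CPM in nANGPTL4 AAV libraries 1 to 4, against 204, 188, 191 and 254 CPM in control AAV libraries 1 to 4, so that nANGPTL4 AAV library 4 and control AAV library 4 stood apart within their groups in opposite directions.

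Psmb8, Psmb9 and Psmb10, the catalytic subunits that replace Psmb5, Psmb6 and Psmb7 in the immunoproteasome, were all abundant. Psmb8 averaged 152 ± 8.53 CPM in nANGPTL4 AAV and 146 ± 10.1 CPM in control AAV, Psmb9 131 ± 9.91 CPM in nANGPTL4 AAV and 123 ± 12.3 CPM in control AAV, and Psmb10 196 ± 13.1 CPM in nANGPTL4 AAV and 188 ± 4.61 CPM in control AAV (SD, n = 4 each). Their log2 fold changes were 0.06, 0.10 and 0.06 (SE 0.06, 0.08 and 0.05), with edgeR adjusted p-values of 0.524 to 0.619. Relative to their constitutive partners, per kilobase of transcript, Psmb8 stood at 1.97 ± 0.0472 times Psmb5 in nANGPTL4 AAV and 1.88 ± 0.133 times in control AAV. The ratio of Psmb9 to Psmb6 was 0.629 ± 0.0200 in nANGPTL4 AAV and 0.599 ± 0.0586 in control AAV, and that of Psmb10 to Psmb7 was 5.03 ± 0.419 in nANGPTL4 AAV and 4.83 ± 0.267 in control AAV (SD, n = 4 each). The groups overlapped in all 3 ratios. Of the 31-base stretches of Psmb5, 71.7% recur in other genes, against 6.24% for Psmb6 and 11.3% for Psmb7. The level of Psmb5, and with it the ratio of Psmb8 to Psmb5, is therefore less certain. Psme1 and Psme2, the subunits of the PA28 activator, had log2 fold changes of 0.06 and -0.01 (SE 0.04 each). Of the stretches of Psme2, 33.5% recur in its copy Psme2b.

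Of the nonclassical and related genes, Cd1d1 showed the same pattern as Erap1. CD1D1 presents lipids, not peptides, to natural killer T cells. Cd1d1 had 47.4, 46.5, 46.9 and 45.4 CPM in nANGPTL4 AAV libraries 1 to 4, against 54.5, 54.6, 51.1 and 53.1 CPM in control AAV libraries 1 to 4. The groups did not overlap, and the spread within each was narrow. The means were 46.6 ± 0.856 CPM in nANGPTL4 AAV and 53.3 ± 1.62 CPM in control AAV (SD, n = 4 each), a difference of -12.7%. The log2 fold change of -0.20 (SE 0.04) missed the threshold in the edgeR test (adjusted p = 0.0657), and DESeq2 gave an adjusted p of 0.00196, the lowest of 0.00196 to 0.233 over the alternatives. Its sign was the same in each of 17 alternative fits, between -0.20 and -0.15. The gene spans chr3:86995834-86999441 (minus strand). Of its stretches, 24.2% recur in its copy Cd1d2, which was at 1.41 to 2.88 CPM in nANGPTL4 AAV and 1.47 to 2.54 CPM in control AAV.

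**Figure D3:**
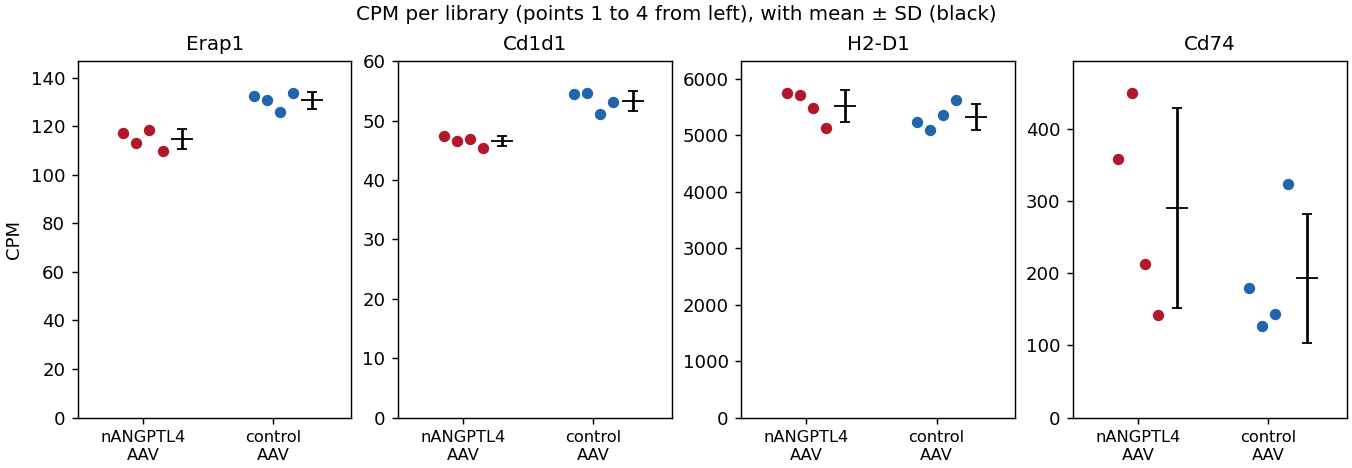
CPM of Erap1, Cd1d1, H2-D1 and Cd74 in each library, with nANGPTL4 AAV in red to the left and control AAV in blue to the right, and the mean ± SD of 4 libraries in black. The groups of Erap1 and Cd1d1 do not overlap, those of H2-D1 and Cd74 do, and the points of Cd74 are the most widely spread.

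The other 9 members of this group overlapped between the groups, with log2 fold changes from -0.11 to 0.05. H2-T23 averaged 624 ± 26.9 CPM in nANGPTL4 AAV and 603 ± 44.9 CPM in control AAV, and Fcgrt, the neonatal Fc receptor that carries IgG and albumin across endothelium, 86.8 ± 2.78 CPM in nANGPTL4 AAV and 84.1 ± 4.77 CPM in control AAV (SD, n = 4 each). Mr1, which presents vitamin B metabolites to MAIT cells, averaged 30.9 ± 3.09 CPM in nANGPTL4 AAV and 31.1 ± 3.29 CPM in control AAV, and H2-M3, which presents formylated peptides, 61.8 ± 3.76 CPM in nANGPTL4 AAV and 60.0 ± 4.11 CPM in control AAV (SD, n = 4 each). H2-Q6 and H2-Q7 had log2 fold changes of -0.11 (SE 0.11) and -0.08 (SE 0.12). Both were lowest in nANGPTL4 AAV library 2, at 486 and 333 CPM. Several H2-Q and H2-T genes share much sequence with other genes. Of the stretches of H2-Q4 53.0% recur in other genes, of H2-Q6 51.8%, of H2-Q7 39.2%, of H2-T22 67.4% and of H2-T23 25.8%. For H2-T24 the share was only 6.61%. Nlrc5, the class I activator, had 65.9, 56.4, 57.8 and 49.3 CPM in nANGPTL4 AAV libraries 1 to 4, against 56.8, 49.6, 56.9 and 66.6 CPM in control AAV libraries 1 to 4. Its groups overlapped almost entirely, and its log2 fold change was -0.0025 (SE 0.10, adjusted p = 0.992 in edgeR).

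Class II transcripts were present in every library and varied far more between libraries than class I transcripts did. Cd74, the invariant chain, had 358, 450, 214 and 142 CPM in nANGPTL4 AAV libraries 1 to 4, against 180, 127, 144 and 323 CPM in control AAV libraries 1 to 4. H2-Ab1, the beta chain of I-A, had 393, 381, 299 and 238 CPM in nANGPTL4 AAV libraries 1 to 4, against 283, 223, 258 and 381 CPM in control AAV libraries 1 to 4. In both genes nANGPTL4 AAV libraries 1 and 2 and control AAV library 4 were high, control AAV library 2 was lowest, and the groups overlapped. H2-Aa, the alpha chain of I-A, had 147, 150, 119 and 96.6 CPM in nANGPTL4 AAV libraries 1 to 4, against 126, 81.8, 96.7 and 153 CPM in control AAV libraries 1 to 4. H2-Eb1, the beta chain of I-E, ran from 57.0 to 105 CPM in nANGPTL4 AAV and from 47.4 to 99.9 CPM in control AAV. H2-DMb1, a chain of the peptide exchanger, had 34.3, 33.3, 23.2 and 17.5 CPM in nANGPTL4 AAV libraries 1 to 4, against 19.0, 16.9, 17.9 and 29.1 CPM in control AAV libraries 1 to 4. H2-DMa, its partner, ran from 21.9 to 39.5 CPM in nANGPTL4 AAV and from 21.5 to 38.2 CPM in control AAV. In all 6 of these genes the 3 highest libraries were nANGPTL4 AAV libraries 1 and 2 and control AAV library 4. Of the stretches of H2-DMb1, 31.4% recur in its copy H2-DMb2, which stayed under 0.49 CPM in every library.

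**Figure D4:**
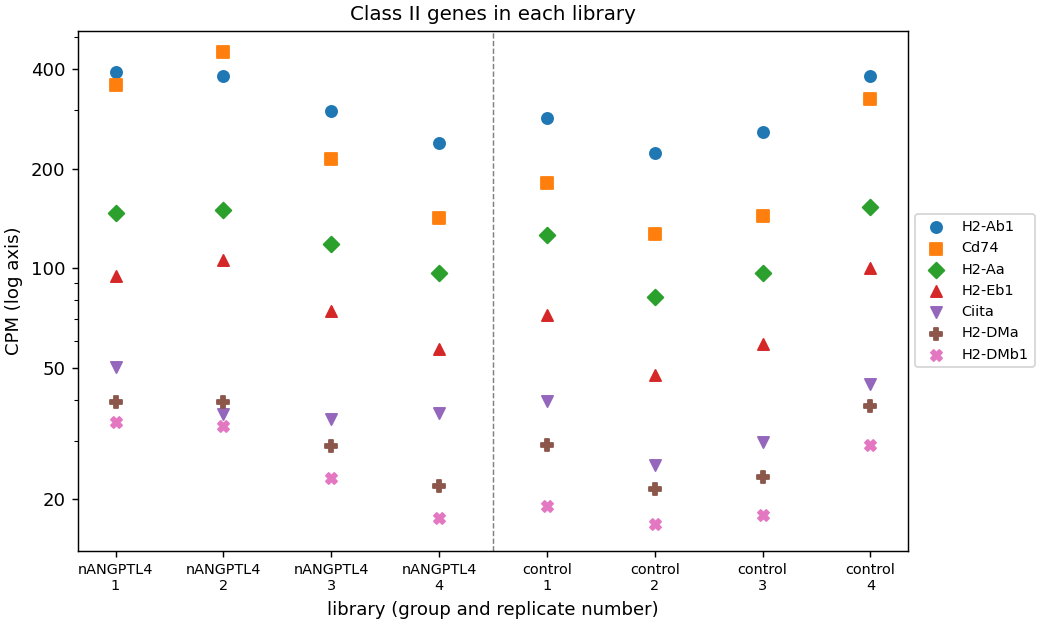
CPM on a log axis of 7 class II genes in each library, with the 4 nANGPTL4 AAV libraries to the left of the dashed line and the 4 control AAV libraries to the right. H2-Ab1, Cd74, H2-Aa, H2-Eb1, H2-DMa and H2-DMb1 are each highest in nANGPTL4 AAV libraries 1 and 2 and control AAV library 4.

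All 11 class II members had log2 fold changes above 0, and none passed the test. The values were 0.59 for Cd74 (SE 0.36, adjusted p = 0.430 in edgeR), 0.38 for H2-DMb1 (SE 0.22, adjusted p = 0.399 in edgeR), 0.25 for H2-Eb1, 0.21 for H2-DMa, 0.20 for H2-Ab1 and 0.16 for H2-Aa. Ctss was at 0.36 (SE 0.38). The ratio of the highest to the lowest library was 3.55 for Cd74 and 1.76 to 2.23 for the other 5 chain and H2-DM genes, against 1.09 to 1.43 over the 24 class I and related members. The SE of these log2 fold changes, 0.18 to 0.36, was therefore larger than the 0.04 to 0.12 of class I and related members. Within groups the coefficient of variation of Cd74 averaged 47.0%, above that of 99.9% of the 9241 genes with a mean log2 CPM over 3, whose median was 5.48%. For H2-D1 it was 4.71%. The log2 fold change of Cd74 was 0.31 without nANGPTL4 AAV library 2 and 0.95 without control AAV library 4, and it passed in neither case (edgeR adjusted p = 0.722 and 0.203).

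The regulators of class II were steadier than the chains, apart from Ciita. Ciita, the transcriptional activator of class II genes, had 50.3, 36.2, 34.9 and 36.5 CPM in nANGPTL4 AAV libraries 1 to 4, against 39.6, 25.4, 29.8 and 44.7 CPM in control AAV libraries 1 to 4. It was highest in nANGPTL4 AAV library 1 and lowest in control AAV library 2, and its log2 fold change was 0.18 (SE 0.17, adjusted p = 0.629 in edgeR). Rfx5, Rfxap and Rfxank, which encode the RFX complex that binds the X box, had log2 fold changes of 0.05, 0.02 and 0.04 (SE 0.11, 0.04 and 0.05), and Rfx5 turned to -0.0044 with limma-voom. Rfxap stayed between 30.3 and 32.1 CPM in nANGPTL4 AAV and between 29.5 and 31.8 CPM in control AAV. Of the exonic bases of Rfx5, 26.8% also belong to an antisense gene, and of those of Rfxank, 33.8% also belong to Nr2c2ap on the other strand.

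The chain and H2-DM genes of class II followed Cd74 from library to library, and so did part of the class I pathway. Log2 CPM of Cd74, taken for its wide spread after the values had been seen, was related over the 8 libraries to each of the other 34 members and to 4 marker sums. The p-values are exact, two-sided and adjusted over these 38 relations, and since Cd74 was picked for its spread they describe a pattern already seen and are no independent test of it. Of the 10 other class II members 5 passed in both Pearson's r and Spearman's rho, namely H2-Aa, H2-Ab1, H2-Eb1, H2-DMa and H2-DMb1. Their r lay between 0.931 and 0.983 and their rho between 0.905 and 0.976. For H2-DMb1 r was 0.983 (p = 0.000124, adjusted p = 0.00236, exact permutation) and rho 0.976 (p = 0.000397, adjusted p = 0.00503, exact permutation). With the 2 libraries farthest from the median of each gene left out the 5 r lay between 0.911 and 0.986, and with each group centred on its own mean that of H2-DMb1 was 0.980. The other class II members did not pass, with an r of 0.691 for Ciita (adjusted p = 0.108, exact permutation), 0.600 for Rfx5, 0.505 for Ctss, 0.421 for Rfxank and -0.0241 for Rfxap.

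Of the 24 class I and related members 6 passed in both measures, namely H2-K1, H2-D1, Psmb8, Psmb9, Psmb10 and Psme1. Over all 24 the median r was 0.743 and 22 had an r above 0. Members that did not pass are thus not shown to be unrelated to Cd74. Psmb9 had an r of 0.947 (p = 0.00104, adjusted p = 0.00495, exact permutation) and a rho of 0.952 (p = 0.00114, adjusted p = 0.00542, exact permutation). With each group centred on its own mean the r of Psmb9 was 0.935, and without the 2 farthest libraries the r of the 6 genes lay between 0.866 and 0.946. H2-D1 had an r of 0.933 (adjusted p = 0.00867, exact permutation) and H2-K1 one of 0.866 (adjusted p = 0.0187, exact permutation). These genes moved over a much narrower range than Cd74, with no more than 1.43 times between the highest and the lowest library. Tap1 passed in rho, at 0.881 (adjusted p = 0.0229, exact permutation), and not in r, at 0.752 (adjusted p = 0.0582, exact permutation). Erap1 and Cd1d1 had an r of -0.241 and -0.332 with Cd74, and Nlrc5 one of 0.711 (adjusted p = 0.103, exact permutation). With each group centred on its own mean these r were 0.442, 0.258 and 0.789. The negative signs of Erap1 and Cd1d1 therefore did not hold within the groups. All these values come from the same 8 libraries, and a shared difference between libraries enters each of them. How many of all genes would pass with Cd74 was not computed, so the counts of members that passed have no background.

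Levels of markers of leukocytes, the cells best known for class II, and of alveolar type 2 cells were summed in each library. H2-Aa, H2-Ab1, H2-Eb1 and Cd74 together came to 534 to 1086 CPM in nANGPTL4 AAV libraries and 479 to 957 CPM in control AAV libraries. The 8 B cell markers together came to 3.42 to 7.02 CPM in nANGPTL4 AAV and 2.80 to 3.50 CPM in control AAV, and Cd79a and Fcer2a were the most abundant of them. The B cell sum was highest in nANGPTL4 AAV library 2, the library with the most Cd74, and lowest in control AAV library 2, the library with the least. All 7 tested B cell markers and all 6 pan-leukocyte markers had log2 fold changes above 0, with list medians of 0.49 and 0.64. The highest sums of both lists, 7.02 and 13.4 CPM, were in nANGPTL4 AAV library 2. With limma-voom the medians were 0.29 and 0.36. Of the 8 B cell markers 6 were under 1 CPM in every library. At an unadjusted p under 0.05, 3 of 7 tested B cell and 1 of 6 pan-leukocyte markers were higher in nANGPTL4 AAV. So were 2 of 5 dendritic cell, 1 of 5 macrophage and monocyte and 1 of 2 T and NK cell markers tested. Of all genes 7.35% were. At the same p 1 dendritic cell marker was lower, against 10.3% of all genes. Only 5 of 9, 5 of 14 and 2 of 11 markers of the last 3 lists passed the low-count filter. A gene near the filter's threshold can pass through the group where it is higher. These shares therefore cannot be weighed against those of all genes. In nANGPTL4 AAV library 1 and control AAV library 4, which were also high in Cd74, the B cell sums were 3.42 and 3.10 CPM. The 6 pan-leukocyte markers came to 6.62 to 13.4 CPM in nANGPTL4 AAV and 5.51 to 7.84 CPM in control AAV, most of it from Laptm5 and Coro1a, and Ptprc (CD45) was at 0.476 to 1.17 CPM in nANGPTL4 AAV and 0.265 to 0.691 CPM in control AAV. The 11 T and NK cell markers, with Trac and Cd4 as the highest, came to 0.938 to 1.73 CPM in nANGPTL4 AAV and 0.496 to 1.08 CPM in control AAV.

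Of the 9 dendritic cell markers, Zbtb46 and Clec9a were abundant, at 220 to 256 and 36.7 to 40.7 CPM in nANGPTL4 AAV and at 257 to 276 and 33.3 to 37.5 CPM in control AAV. Zbtb46 is known to be expressed in endothelium as well. The whole list came to 262 to 294 CPM in nANGPTL4 AAV and 295 to 313 CPM in control AAV. Without Zbtb46 and Clec9a, which were set aside after their levels were seen, the other 7 came to 1.30 to 2.04 CPM in nANGPTL4 AAV and 1.02 to 1.52 CPM in control AAV, and Flt3 and Itgax stayed under 0.2 CPM in every library. The 14 macrophage and monocyte markers came to 30.6 to 50.2 CPM in nANGPTL4 AAV and 19.1 to 41.1 CPM in control AAV. Most of this was Lyz2, which alveolar type 2 cells also express, except in control AAV library 1 (19.1 CPM with Lyz2, 10.4 CPM without). Without Lyz2 the other 13 came to 11 to 11.6 CPM in nANGPTL4 AAV and 8.56 to 10.4 CPM in control AAV. These groups did not overlap, and 1 of the markers, Cd68, had a log2 fold change of 0.46 (edgeR adjusted p = 0.0718). Of the 9 alveolar type 2 markers Abca3 was at 131 to 144 CPM in nANGPTL4 AAV and 130 to 147 CPM in control AAV, and the other 8, mostly Sftpc, came to 92.9 to 222 CPM in nANGPTL4 AAV and 35.9 to 180 CPM in control AAV. No marker of these lists was called over all genes in the edgeR test, while DESeq2 called Cd68 higher and Zbtb46, Flt1 and Vwf lower in nANGPTL4 AAV. The r of Cd74 with the summed markers was 0.550 for B cells and 0.473 for pan-leukocyte genes. It was 0.122 for macrophages and monocytes (with Lyz2) and 0.106 for alveolar type 2 cells (without Abca3). The adjusted p-values of these relations were 0.221 to 0.911 by exact permutation. With the 2 libraries farthest from the median of each sum left out, nANGPTL4 AAV library 2 among them for the leukocyte lists, these r were -0.526, -0.605, -0.723 and -0.146. The part of leukocytes or alveolar type 2 cells in the class II values was not tested.

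**Figure D5:**
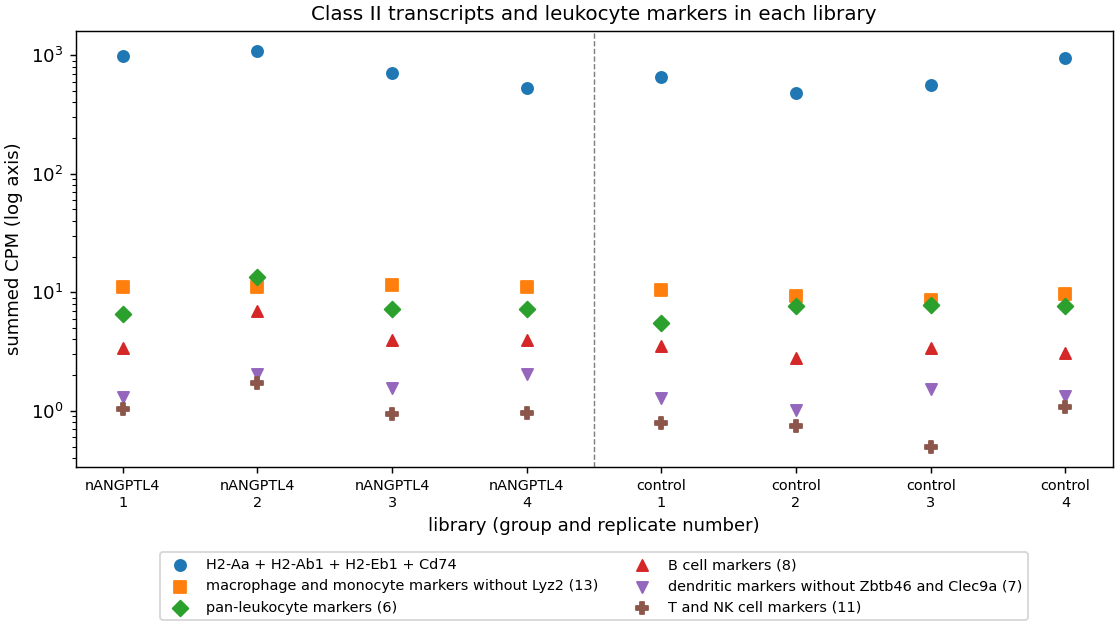
Summed CPM on a log axis of H2-Aa, H2-Ab1, H2-Eb1 and Cd74 and of 5 leukocyte marker lists in each library, with the 4 nANGPTL4 AAV libraries to the left of the dashed line. The class II sum lies between 479 and 1086 CPM and each plotted leukocyte sum at or under 13.4 CPM in every library, with Zbtb46 and Clec9a left out of the dendritic list and Lyz2 out of the macrophage and monocyte list.

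Other genes of the pathways came from lists that were not part of the member set, and 0 of their genes were called in either direction in the edgeR test. Of 8 tested chaperones and translocation genes of the endoplasmic reticulum 7 had negative log2 fold changes, with a list median of -0.12. Canx, the chaperone calnexin that folds class I heavy chains, averaged 331 ± 16.4 CPM in nANGPTL4 AAV and 397 ± 26.8 CPM in control AAV (SD, n = 4 each). Its log2 fold change was -0.26 (SE 0.06, adjusted p = 0.0756 in edgeR), and DESeq2 called it. Its groups did not overlap, nor did those of Uggt1, a folding sensor, at -0.11 on the log2 scale, and Sec61a1, a subunit of the translocation channel, at -0.13. These were 3 of 8 genes, or 37.5%, against 10.9% of all genes tested and 14.8% of the 9241 genes with a mean log2 CPM over 3. The list median was -0.08 when scaled by library size alone. The 17 genes of the constitutive proteasome and its partners had a median of 0.01, with Psme3 at -0.18 and Psme4 at -0.14 as those with the smallest p. Of the 16 tested genes of other class II functions, Creb1, whose product binds class II and many other promoters, was at -0.27 on the log2 scale (SE 0.07, adjusted p = 0.0902 in edgeR) and was called by DESeq2, and Ctsb one of -0.09. Of 9 tested other class I genes, H2-T10 had a log2 fold change of 0.19, with 64.2% of its stretches recurring elsewhere, and H2-Q1 one of 0.78 at under 0.4 CPM.

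Interferon gamma signalling and its targets overlapped between the groups in most genes. Over the 14 tested signalling genes the median log2 fold change was 0.01, with Ifngr2, a receptor chain, at -0.13 and Irf2, a transcription factor, at 0.10 as those with the smallest p. The 14 guanylate binding protein, immunity-related GTPase and chemokine genes had a median of 0.00, with Gbp9 at -0.13 and Ido1 at 0.24. Costimulatory genes were uneven in level. Cd40 and Cd274 were at 44.9 to 52.1 and 46.3 to 54.3 CPM in nANGPTL4 AAV and at 45.2 to 51.3 and 39.7 to 59.5 CPM in control AAV. Cd80 and Cd86, the ligands of CD28 on antigen-presenting cells, stayed under 0.08 CPM in every library and were not tested. Of the 6 tested costimulatory genes Icosl and Cd274 had the smallest p, with log2 fold changes of -0.09 and 0.08.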

How the data were processed

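RNA of endothelial cells sorted from lung was measured in 8 libraries. The authors deposited raw counts of reads for each gene as whole numbers. A low-input cDNA kit and a ChIP-seq library kit were used, per the labels' protocols. The submitters' processing notes name build mm10. The aligner, counting program, strand setting and annotation are not given in the sources used here. Of 31610 identifiers 31491 matched GENCODE M21 without their version number.

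Counts were fitted with edgeR 4.0.16 in R 4.3.3: filterByExpr with a minimum count of 10, TMM scaling, the quasi-likelihood F test with group as the only term, and Benjamini-Hochberg adjustment over 18874 genes. Positive log2 fold changes mean higher in nANGPTL4 AAV. CPM use TMM-scaled library sizes, and the SD is over 4 libraries. Per-length levels divide CPM by the longest APPRIS principal transcript. Alternatives used DESeq2 1.42.0, limma 3.58.1, other scalings and filters, the replicate number as a block and each library left out. Copies were found as 31-base stretches shared between annotated transcripts, on either strand. Tested on simulated counts with 50 genes changed at each fold, the fit recovered 42% at a fold of 1.25, 96% at 1.5 and 100% at 2, over 18635 genes. It also called 7 unchanged genes. The changed genes were drawn at random from the more abundant genes, so these shares need not hold for the widely spread class II genes.

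The members and lists were chosen with earlier results of these data known. All members are named. From each pathway list the 2 genes with the smallest p are named, and from each marker list the 2 most abundant and some at or near 0. Genes named outside this rule were chosen after their values were seen.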

Additional observations from a re-analysis of the deposited data

Results flagged for a closer look

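In each group of 4 libraries, the highest or lowest library of each member was compared with the rest of its group by Dixon's ratio, against the critical value for 95% confidence. Of 70 groups tested, 2 were set apart, where chance alone flags about 1 in 20. Tap1 in nANGPTL4 AAV library 4 was at 183 CPM, below the 212 to 216 CPM of the other 3 nANGPTL4 AAV libraries. Ciita in nANGPTL4 AAV library 1 was at 50.3 CPM, above the 34.9 to 36.5 CPM of the other 3.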

How the results depend on the processing

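In the edgeR fit 26 genes were called over all genes. The count was 4 with upper-quartile scaling, 4 with library size only, 1 with the stricter low-count filter, 956 with DESeq2, 59 with robust edgeR, 471 at an adjusted p under 0.10, and 1 to 2 with a library left out. Of the 35 members 0 were called, also with a library left out, and 2 were called (Erap1 and Cd1d1, both lower in nANGPTL4 AAV) by DESeq2 and, in edgeR, at an adjusted p under 0.10. The replicate block gave 6 called genes and 0 called members. Same-numbered libraries gave correlations of deviations from the group means of 0.155, 0.144, -0.248 and -0.376. Other pairs of libraries gave -0.362 to 0.332. Such correlations cannot show whether the numbers pair the samples, which the labels do not say. The adjusted p of Erap1 and Cd1d1 was 0.196 and 0.180 with the replicate block. The members' median log2 fold change lay between 0.02 and 0.09 over the alternatives.

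Of 594 recomputed values of single members 538 kept direction and side of the threshold, and 24 members had no reversed value. The cause of the reversals was not tested. With upper-quartile scaling reversed log2 fold changes were 0.0137 for B2m, 0.0183 for Tap1, 0.0205 for Tap2, 0.0291 for Psme2, 0.0376 for Nlrc5, 0.0130 for H2-Q4 and 0.0322 for Mr1. With library size only they were 0.0169 for B2m, 0.0210 for Tap1, 0.0236 for Tap2, 0.0324 for Psme2, 0.0402 for Nlrc5, 0.0156 for H2-Q4 and 0.0358 for Mr1. With the stricter filter they were 0.0026 for Tap1, 0.0048 for Tap2, 0.0135 for Psme2, 0.0222 for Nlrc5 and 0.0162 for Mr1, and Ctss was not tested there. Nlrc5 was 0.0019 with RLE scaling and DESeq2 and 0.0027 with no filter, and limma-voom gave -0.0082 for H2-K1 and -0.0044 for Rfx5. With a library left out, values ran from -0.0249 to 0.0698 for H2-K1, -0.0644 to 0.0253 for B2m, -0.0598 to 0.0834 for Tap1, -0.0312 to 0.0066 for Tap2, -0.0216 to 0.0098 for Psme2, -0.0661 to 0.0756 for Nlrc5, -0.0003 to 0.1076 for H2-T24, -0.0718 to 0.0280 for H2-Q4, -0.1670 to 0.0071 for H2-Q7, -0.0540 to 0.0655 for Mr1 and -0.0454 to 0.1320 for Rfx5. Depth limits Ctss, at under 1 CPM, and the lowest markers, while the spread between libraries limits the class II genes.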

Other observations

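H2-Q10, a class I gene outside the member set that is known for its secreted product in liver, was chosen after its values were seen. It had 166, 175, 207 and 21 counts in nANGPTL4 AAV libraries 1 to 4 and 25, 173, 137 and 23 counts in control AAV libraries 1 to 4. This is 1.73 to 1.89 CPM in 3 nANGPTL4 AAV libraries and 0.204 CPM in the other, and 1.53 and 1.66 CPM against 0.274 and 0.231 CPM within control AAV. The low libraries were nANGPTL4 AAV library 4 and control AAV libraries 1 and 4, which does not follow the treatment. Of its 31-base stretches, 30.3% recur in other genes, H2-Q7 first among them, and H2-Q7 does not show the same split, at 368, 417 and 476 CPM in those 3 libraries.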
